A study of Mus musculus with 64 samples.

Results

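The genes that build and load major histocompatibility complex (MHC) class II were followed in mouse liver and hippocampus after corticosterone (CORT) exposure. The 8 genes, H2-Aa, H2-Ab1, H2-Eb1, Cd74, Ciita, H2-DMa, H2-DMb1 and H2-DMb2, were chosen by name and were found by their Ensembl gene IDs among 55414 gene rows. All mice were male F1 hybrids of C57BL/6J and 129sv, aged 10 to 18 weeks, and were either wild type (WT) or Angelman syndrome model (AS) mice of the genotype Ube3a m−/p+. AS mice lack exon 5 of the maternal allele of Ube3a, a ubiquitin ligase gene whose paternal allele is silent in neurons, so that the protein is lost mainly from neurons while other cells keep the paternal copy. In the acute cohort, hippocampus was taken 3 h after 1 injection of 3 mg/kg CORT or vehicle, and each of the 4 combinations of genotype and treatment had 6 mice. In the continuous cohort, both hippocampus and liver were taken from each mouse after 5 days with a 20 mg CORT or a vehicle pellet. Each combination had 5 mice, with 5 libraries per tissue. Each library is bulk RNA-seq of a whole tissue piece, in which fewer cells of a type and less RNA per cell cannot be told apart.

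MHC class II molecules are heterodimers of an alpha and a beta chain that carry peptides from endosomes to the cell surface, where CD4+ T cells read them. Dendritic cells, B cells and macrophages are their main source. In these mice the alpha chain H2-Aa pairs with the beta chain H2-Ab1, and H2-Eb1 encodes the beta chain of the second class II molecule, whose alpha chain gene is a pseudogene in the reference strain (H2-Ea-ps). Cd74 encodes the invariant chain that escorts the dimers and plugs their groove, H2-DMa and H2-DMb1 or H2-DMb2 encode the DM dimer that exchanges the plug for peptide, and Ciita encodes the coactivator that switches the class II genes on. CORT is the main glucocorticoid of mice and acts through the glucocorticoid receptor, a nuclear receptor known to dampen immune genes.

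In the GRCm38 annotation, 6 of the genes lie within the class II region of chromosome 17: H2-DMa at chr17:34119541-34139101, H2-DMb2 at chr17:34143307-34151555, H2-DMb1 at chr17:34153072-34160230, H2-Ab1 at chr17:34257689-34269419, H2-Aa at chr17:34282744-34287823 and H2-Eb1 at chr17:34305867-34316674. Ciita lies at chr16:10480059-10528418. H2-Aa is read from the minus strand and the other genes named here from the plus strand. H2-DMb1 and H2-DMb2 are near copies: their longest transcripts of 1404 and 1483 bases shared 809 of 848 aligned bases (95.4%), so the split of reads from that stretch between them is uncertain. H2-DMa shares 360 exon bases with Brd2 on the opposite strand, and Ciita shares 329 with Dexi, and the strand setting of the counting is not given in the sources used here.

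The windows from 250 bases before to 50 bases after the transcript start (RefSeq, GRCm38.p6) are printed for the 4 genes in which known class II promoter elements were found, to show where these lie. Capitals mark the Y box TGATTGG, the X box core AACNGATG and the cyclic AMP response element TGACGTCA, searched on both strands. The windows of H2-Aa (chr17:34287774-34288073, minus strand), H2-Eb1 (chr17:34305617-34305916, plus strand), H2-DMb1 (chr17:34152941-34153240, plus strand) and H2-DMb2 (chr17:34144999-34145298, plus strand) read 5′ to 3′ as follows.
H2-Aa: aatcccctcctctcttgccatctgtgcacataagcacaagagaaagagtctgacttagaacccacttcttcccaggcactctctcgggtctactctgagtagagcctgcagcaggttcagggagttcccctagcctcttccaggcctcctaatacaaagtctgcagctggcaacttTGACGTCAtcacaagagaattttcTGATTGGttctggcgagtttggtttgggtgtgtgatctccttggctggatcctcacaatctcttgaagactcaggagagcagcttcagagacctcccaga
H2-Eb1: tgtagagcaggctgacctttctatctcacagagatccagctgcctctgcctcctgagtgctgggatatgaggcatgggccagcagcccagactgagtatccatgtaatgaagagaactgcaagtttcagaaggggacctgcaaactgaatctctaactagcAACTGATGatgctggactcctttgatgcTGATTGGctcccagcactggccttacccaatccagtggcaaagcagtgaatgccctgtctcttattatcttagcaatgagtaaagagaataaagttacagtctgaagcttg
H2-DMb1: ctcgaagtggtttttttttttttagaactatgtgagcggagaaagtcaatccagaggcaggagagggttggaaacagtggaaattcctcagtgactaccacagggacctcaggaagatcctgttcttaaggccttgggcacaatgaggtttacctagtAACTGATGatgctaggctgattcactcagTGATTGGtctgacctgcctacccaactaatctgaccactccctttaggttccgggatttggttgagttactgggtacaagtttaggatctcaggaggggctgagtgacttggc
H2-DMb2: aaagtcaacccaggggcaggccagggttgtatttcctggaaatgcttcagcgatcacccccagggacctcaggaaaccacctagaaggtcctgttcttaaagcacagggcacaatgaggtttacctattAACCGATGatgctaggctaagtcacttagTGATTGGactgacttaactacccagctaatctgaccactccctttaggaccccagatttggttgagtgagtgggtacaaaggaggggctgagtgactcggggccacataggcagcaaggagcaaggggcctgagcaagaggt

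Of the 6 windows found for 5 of the 8 genes, the 4 printed here, chosen for holding such elements, held a Y box, from position -50 to -44 in H2-Aa, -61 to -55 in H2-Eb1, -63 to -57 in H2-DMb1 and -92 to -86 in H2-DMb2, counted from the transcript start. Of 32851 such windows over the genome, 7.82% held those letters. The X box core stood upstream of it in H2-Eb1 (-89 to -82), H2-DMb1 (-92 to -85) and H2-DMb2 (-121 to -114), against 2.32% of all windows, and H2-Aa held the cyclic AMP response element at -74 to -67, against 1.79%. These letters were chosen after the sequences had been seen. The 2 windows of H2-DMa held none of the 3. The single glucocorticoid receptor hexamer AGAACA, present in 19% of all windows, was found on the minus strand of H2-DMb1 (-130 to -125) and H2-DMb2 (-159 to -154). The full palindrome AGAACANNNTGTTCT was present in 3 windows of the genome (0.00913%) and in none of these genes. A match describes letters in a window and shows no binding.

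Gene counts summed to between 18612550 and 21783009 per library, and 3 counts, taken as the floor of a readable level, were worth 0.138 to 0.161 CPM, the count scaled to the library total. Fkbp5, a glucocorticoid receptor target, rose with CORT in both tissues, by 0.96 on the log2 scale in acute hippocampus, by 0.81 in continuous hippocampus and by 3.78 in liver. Ube3a counts were lower in AS than in WT liver (28 to 37.9 against 42 to 54 CPM) and overlapped between genotypes in hippocampus, where a gene-level count checks the loss of 1 exon only in part. The hippocampal libraries of WT vehicle mouse 13 and AS vehicle mouse 9 were left out of the main fits, as the study did. Their neuron marker sums were 1920 and 2630 CPM, against 4530 to 5290 in the other vehicle libraries of the same scaling, and the choroid plexus sum of mouse 13 was 12600 CPM. Values with all 20 mice are given beside the hippocampal results.

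The class II genes were lower in liver after continuous CORT. H2-Aa, H2-Ab1, H2-Eb1 and Cd74 fell 4.14- to 5.62-fold, Ciita 7.18-fold, and H2-DMa and H2-DMb1 3.38- and 3.41-fold, with no overlap between CORT and vehicle libraries for any of the 7. H2-Aa, the alpha chain, was measured at 23.7, 28.7, 34, 36.2 and 45.2 CPM in WT vehicle livers and at 33.9, 35.8, 37.8, 40.4 and 46 in AS vehicle livers. In CORT livers H2-Aa was at 5.93, 5.98, 6.38, 7.97 and 8.5 CPM in WT and 4.72, 5.84, 7.52, 7.93 and 8.62 in AS. Every CORT library lay below every vehicle library, and both genotypes covered like ranges. The log2 fold change of H2-Aa averaged over genotypes was -2.39 ± 0.12 (SE, adjusted p = 1.8e-11, edgeR quasi-likelihood test with Benjamini-Hochberg adjustment).

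Its partner H2-Ab1 fell from 19.7 to 43.4 CPM in vehicle livers to 4.9 to 8.03 CPM in CORT livers (log2 fold change -2.44 ± 0.13, adjusted p = 3.75e-11 by edgeR). H2-Eb1 fell from 15 to 27.7 CPM to 2.87 to 5.03 CPM (log2 fold change -2.49 ± 0.11, adjusted p = 2.4e-12 by edgeR). The 3 chains kept similar proportions: the ratio of H2-Ab1 to H2-Aa had a median of 0.912 with vehicle and 0.871 with CORT, and that of H2-Eb1 to H2-Ab1 a median of 0.696 and 0.651, with overlapping ranges in both cases.

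Cd74, the invariant chain gene on chromosome 18 and the most abundant of the 8 in liver, was at 53.8, 60.2, 71.5, 75 and 85.7 CPM in WT vehicle livers and 72.5, 75, 79.1, 85 and 100 CPM in AS vehicle livers. With CORT it was at 14.5, 17.3, 17.6, 21.1 and 23.5 CPM in WT and 12.6, 16.8, 18.2, 20.7 and 22.2 CPM in AS. All CORT values lay below all vehicle values, and the log2 fold change was -2.05 ± 0.11 (adjusted p = 3.71e-11 by edgeR). The ratio of Cd74 to H2-Aa was 1.9 to 2.27 in vehicle livers and 2.15 to 3.57 in CORT livers.

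Ciita, the coactivator, gave 25, 26, 35, 42 and 54 counts in WT vehicle livers and 28, 34, 34, 41 and 56 in AS vehicle livers. It gave 3, 3, 5, 8 and 9 counts in WT CORT livers and 2, 3, 3, 5 and 9 in AS CORT livers. The CORT counts were near the floor in most libraries, so the fold change (log2 -2.84 ± 0.25, adjusted p = 3.59e-08 by edgeR) carries more counting error than those of the chains.

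The DM genes, which edit the peptide cargo, were low in liver but also fell. H2-DMa gave 51, 60, 68, 68 and 77 counts in WT vehicle livers, 57, 66, 74, 81 and 97 in AS vehicle livers, 15, 19, 20, 22 and 23 in WT CORT livers and 8, 18, 23, 24 and 27 in AS CORT livers. The 2 treatments did not overlap, and the log2 fold change was -1.76 ± 0.16 (adjusted p = 5.73e-08 by edgeR). H2-DMb1 fell from 33 to 89 counts to 10 to 29 counts (log2 fold change -1.77 ± 0.19, adjusted p = 4.84e-07 by edgeR). H2-DMb2 gave 5 to 17 counts in vehicle livers and 0 to 2 in CORT livers, with 4 of 10 CORT libraries at 0. It did not pass the filter on low counts, and without the filter its fitted log2 fold change was -3.43 (adjusted p = 6.73e-07 by edgeR), a value that rests on CORT counts under the floor.

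**Figure D1:**
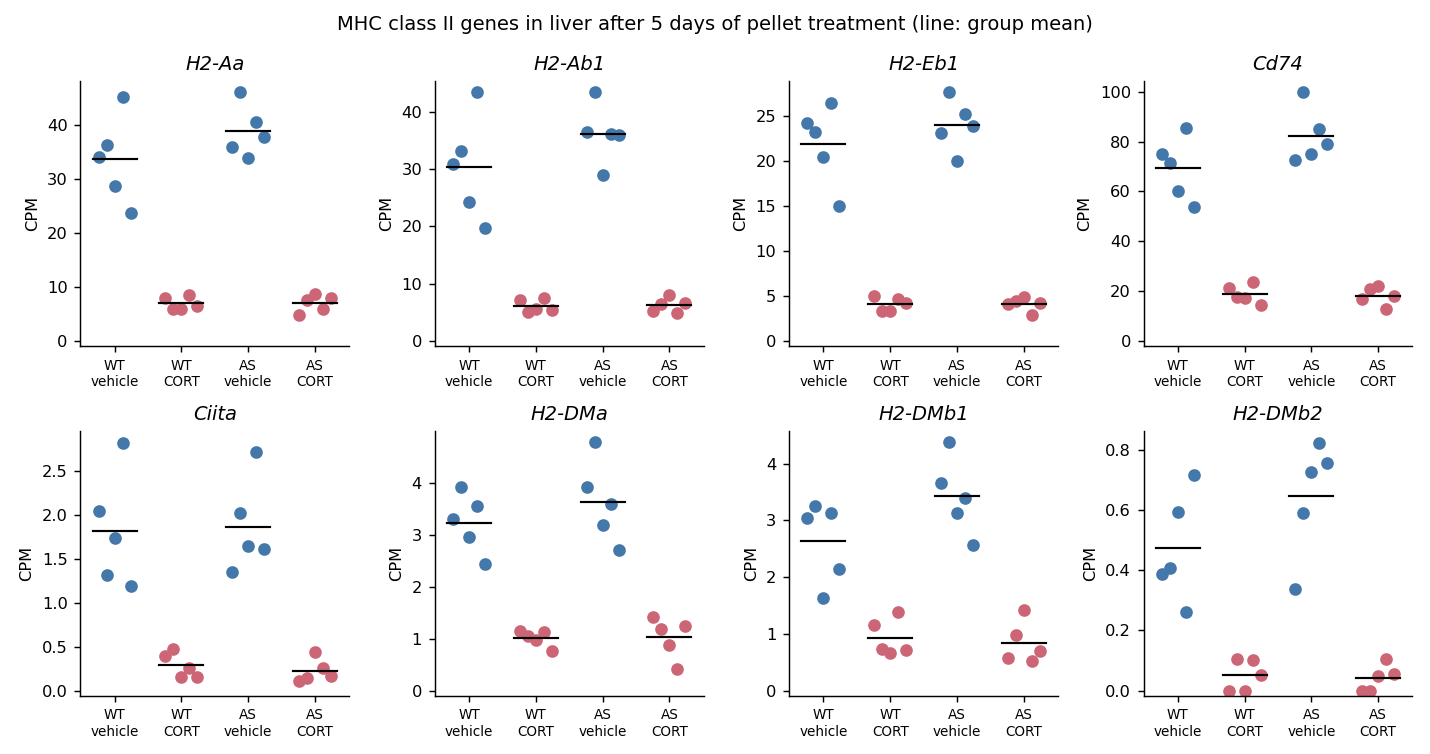
Level of each of the 8 genes in liver (vertical axis, CPM) in WT and AS mice with a vehicle or CORT pellet, with 1 point per library, 5 per group, and a line at the group mean. For 7 genes the lowest vehicle point lies above the highest CORT point in both genotypes, as for H2-Aa (23.7 against 8.62 CPM); H2-DMb2 sits near the floor with CORT.

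All 7 genes that passed the filter fell, in the mean of both genotypes, where 19.6% of the 12273 tested genes fell. H2-Aa, H2-Ab1, H2-Eb1, Cd74 and H2-DMa passed the filter in each of the 4 groups, whereas Ciita and H2-DMb1 passed through the vehicle groups alone and so had to be high there. Without the filter, 8 of 8 were called lower, against 9.44% of 26482 genes. The complete separation of CORT from vehicle libraries seen for the 7 genes was found for 3.25% of tested genes. Their median log2 fold change was -2.39, and that of all tested genes was -0.0035. No single library decided any of these calls: leaving out each of the 20 in turn left 7 genes called every time.

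The fall was measured in each genotype alone. In WT livers the 7 genes fell by log2 values between -2.64 (Ciita) and -1.5 (H2-DMb1), and 9.9% of all tested genes were called lower. In AS livers they fell by between -3.04 (Ciita) and -1.84 (H2-DMa), and 15% of all tested genes were called lower. The interaction of genotype and CORT was called for none of the 7 (edgeR, 0 of 12273 genes called, 995 at an unadjusted p under 0.05, 0% of the tested genes). Its estimates ran from -0.53 ± 0.39 for H2-DMb1 to -0.17 ± 0.22 for H2-Eb1 on the log2 scale, so differences of this size between genotypes were not resolved. No difference between AS and WT livers averaged over treatments was called in the 7 genes either, with log2 differences of AS minus WT between -0.14 and 0.15, where 0.326% of tested genes were called.

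The genes around this core moved less in liver, where 19.6% of all tested genes fell and 17.5% rose. Of the 8 transcription factor genes whose products bind the X and Y boxes, 2 fell (Nfyb by 0.41 and Crem by 0.22 on the log2 scale) and 1 rose (Nfya, log2 0.22), while the RFX genes Rfx5, Rfxap and Rfxank, whose loss silences class II, were at log2 -0.03 ± 0.12, 0.22 ± 0.09 and -0.28 ± 0.22 and were not called. Of the 8 tested genes of endosomal processing, 5 fell, among them March1, a ligase that removes class II from the surface (log2 -1.01 ± 0.22), and Ctss, the protease that trims the invariant chain (log2 -0.87 ± 0.08). Ctsd rose (log2 0.18 ± 0.06). The 2 tested genes of the co-stimulation list fell, Cd86 by 0.92 and Cd274, an inhibitory rather than a stimulatory ligand, by 1.41 on the log2 scale. The count of the factor genes was near the share of all genes, and those of the other lists rest on few genes.

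MHC class I, which presents peptides from the cytosol on nearly all cells, shifted in part. Of its 16 pathway genes 9 fell and 1 rose in liver, with a median log2 fold change of -0.26, where 19.6% of all tested genes fell. Nlrc5, the class I counterpart of Ciita, fell by 0.76 and the non-classical H2-T23 by 0.75 on the log2 scale, and the peptide transporter subunit Tap2 by 0.25, while the chaperone Canx rose (log2 0.14). Of 8 tested genes of interferon gamma signalling, the main inducer of Ciita, 4 fell, among them Irf8 (log2 -0.67 ± 0.1) and Irf1 (log2 -0.54 ± 0.12), and Irf2 rose (log2 0.81 ± 0.13). The class II genes outside the 8 were too low to test: H2-Ob, a subunit of the DM inhibitor, gave 4 to 21 counts in vehicle and 0 to 3 in CORT livers, its partner H2-Oa gave 2 to 6 and 0 to 3, and H2-Ea-ps gave 0 counts in 64 of 64 libraries.

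**Figure D2:**
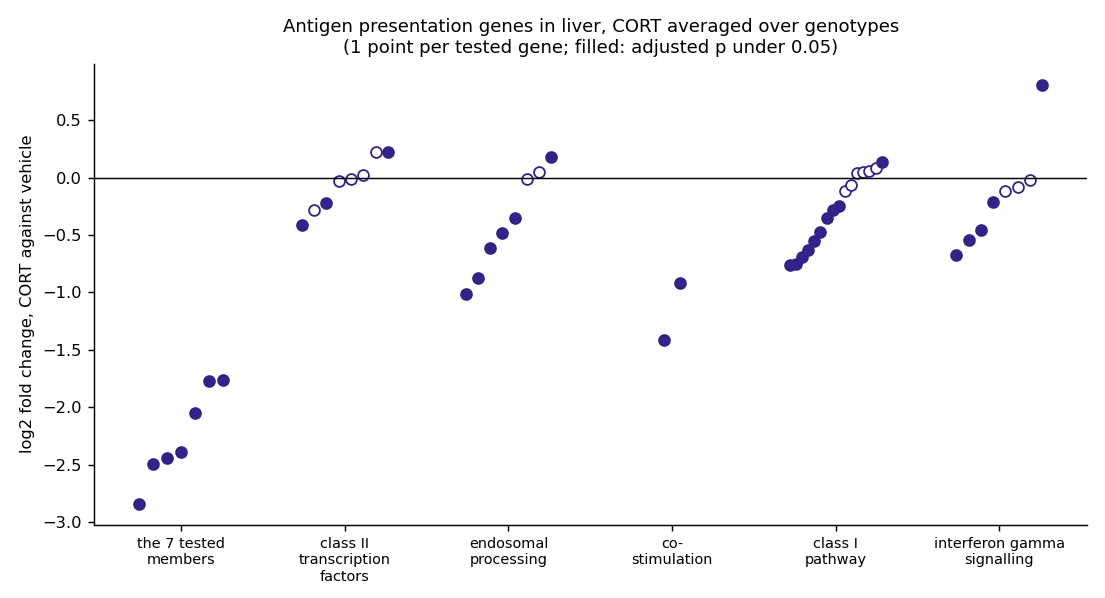
Log2 fold change, CORT against vehicle averaged over genotypes, of each tested gene in liver, grouped by role, with filled points at an adjusted p under 0.05. The 7 class II genes lie between -2.84 and -1.76, and the genes of the 5 other groups between -1.41 (Cd274) and 0.81 (Irf2).

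Markers of several cell types that carry class II, and of other blood and immune cells, were also lower in CORT livers. Of all tested genes there, 19.6% fell and 17.5% rose. Of the 6 Kupffer cell markers, the resident liver macrophages, 5 fell, by between 0.84 (Clec4f) and 1.42 (Timd4) on the log2 scale, and the summed level of the list went from 114 to 207 CPM with vehicle to 57.6 to 85.4 CPM with CORT. The 4 tested of 8 B cell markers fell, Ighd with a log2 fold change of -3.67, Cd79a of -3, Cd22 of -2.46 and Ighm of -1.77, and the sum went from 5.67 to 44.4 CPM to 2.19 to 14.4 CPM. The dendritic cell sum went from 5.02 to 9.02 CPM to 3.41 to 6.7 CPM, with Zbtb46, its 1 tested marker of 8, lower by 0.45. T cell markers summed to 3 to 6.1 CPM with vehicle and 0.597 to 2.17 CPM with CORT (Cd4 log2 -1.32), and monocyte and neutrophil markers to 4.95 to 9.62 and 3.07 to 4.95 CPM (Ccr2 log2 -2.12). None of the markers of these 5 lists was at 0 in every liver library. All 5 blood markers, the haemoglobin genes and Alas2 of red cells, fell as well, by a median of 0.88 on the log2 scale, and their sum went from 244 to 578 CPM with vehicle to 124 to 328 CPM with CORT. The border macrophage sum went from 34.4 to 64.9 CPM to 29.5 to 48.9 CPM, with 1 of its 2 tested markers called lower. The hepatocyte sum went from 83200 to 115000 CPM to 92300 to 134000 CPM, and 5 of its 6 markers rose (median log2 0.24). Of the microglial list, 2 of 4 tested markers rose in liver (Tmem119, log2 1.2, and Sall1, log2 0.91) and P2ry12 fell by 0.9, and the sum went from 24.3 to 37.2 CPM to 34.1 to 54.4 CPM.

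Set against these sums, H2-Aa was at 0.183 to 0.374 of the Kupffer cell sum with vehicle and 0.0737 to 0.111 with CORT, and at a median of 5.08 and 1.46 times the dendritic cell sum. Cd74 was at 0.414 to 0.709 of the Kupffer cell sum with vehicle and 0.217 to 0.277 with CORT. Against the B cell sum, Cd74 ranged from 1.49 to 13.2 with vehicle and from 1.17 to 7.3 with CORT. Both genes were thus lower relative to the Kupffer cell sum in every CORT liver, while their ratios to the B cell sum overlapped between treatments. The part of cell numbers or of blood content in the fall was not tested.

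**Figure D3:**
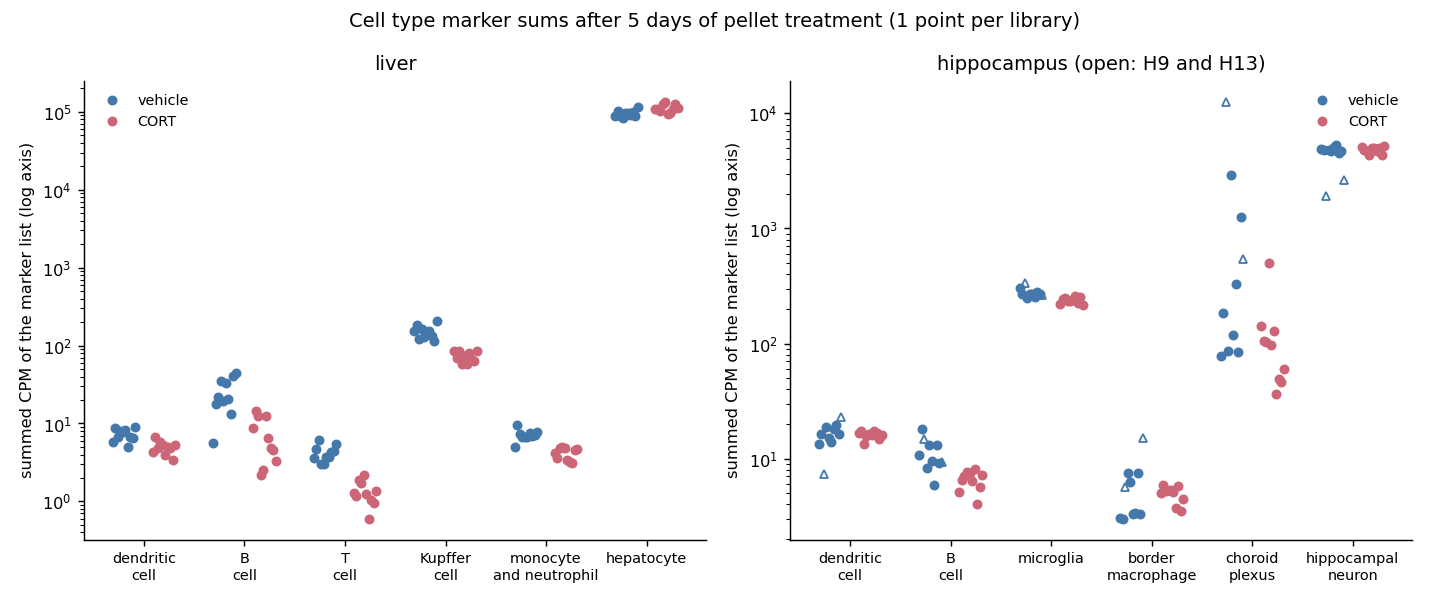
Summed CPM of each cell type marker list (log axis) in liver on the left and hippocampus on the right, with 1 point per library and vehicle beside CORT. In liver the Kupffer cell and T cell sums do not overlap between treatments (57.6 to 85.4 CPM with CORT and 114 to 207 CPM with vehicle for Kupffer cells), and in hippocampus the choroid plexus sum is widely spread and highest in WT vehicle mouse 13, drawn open with AS vehicle mouse 9.

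Hippocampus held little class II RNA. Per kilobase of exon and on a scale set jointly over both tissues, the vehicle livers ranked Cd74 first (59.5 ± 10.3 CPM per kb, SD, n = 10), then H2-Ab1 (17 ± 3.91), H2-Eb1 (15.6 ± 2.49) and H2-Aa (12.5 ± 2.37), whose ranges overlapped, then H2-DMb1 (2.38 ± 0.609) and H2-DMa (1.31 ± 0.26), which also overlapped, and last H2-DMb2 (0.422 ± 0.149) and Ciita (0.254 ± 0.0767), which overlapped too. In vehicle hippocampus the order was headed by H2-DMa (3.67 ± 0.197 CPM per kb, SD, n = 8), followed by Cd74 (0.854 ± 0.517), H2-DMb1 (0.496 ± 0.146), H2-Eb1 (0.35 ± 0.193), H2-Ab1 (0.209 ± 0.145), H2-Aa (0.166 ± 0.143) and H2-DMb2 (0.0914 ± 0.0366). Only H2-DMa stood clear of its neighbour there, since each of the others overlapped the next. Ciita, at 1 to 8 counts with a median of 3, was at the floor and was not ranked. With WT vehicle mouse 13 and AS vehicle mouse 9, and on the scale of hippocampus alone, the vehicle mean of H2-Ab1 went from 0.721 to 1.13 CPM and that of Cd74 from 1.93 to 2.87 CPM.

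Vehicle liver exceeded vehicle hippocampus 84.9-fold for H2-Ab1, 83.1-fold for H2-Aa, 72.8-fold for Cd74, 47.8-fold for H2-Eb1 and 4.95-fold for H2-DMb1, whereas H2-DMa was 2.68-fold lower in liver. These folds depend on the scale set jointly over both tissues. Scaled within each tissue, vehicle means in liver and hippocampus were 33.2 and 0.721 CPM for H2-Ab1 and 75.8 and 1.93 CPM for Cd74, a smaller excess in liver. For H2-DMa they were 3.43 and 17 CPM, a larger deficit in liver. With all 40 libraries the log2 difference went from 6.41 to 5.81 for H2-Ab1, from 6.38 to 5.86 for H2-Aa, from 6.19 to 5.65 for Cd74 and from 5.58 to 5.19 for H2-Eb1. These 6 genes and Ciita, for which no fold is read from hippocampal counts at the floor, were called by edgeR, in a comparison where 93.1% of 15937 tested genes were called and 43.5% were called higher in liver. H2-Aa, H2-Ab1, H2-Eb1 and Ciita passed the filter through liver alone and so had to be high there, which leaves Cd74, H2-DMa and H2-DMb1 as the genes that passed in each tissue. The median over all tested genes was -0.16 on the log2 scale. The H2-DMa count in hippocampus overlaps that of its neighbour Brd2, which was at 210 ± 8.09 CPM with vehicle (SD, n = 8).

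After 5 days of CORT, the class II chains were also lower in hippocampus, at levels close to the floor. Cd74 gave 8, 25, 71 and 90 counts in the WT vehicle libraries, 30, 32, 36 and 45 in AS vehicle, 4, 8, 14, 14 and 15 in WT CORT and 7, 8, 9, 16 and 16 in AS CORT. The AS groups did not overlap, while WT vehicle mouse 1, with 8 counts, lay among the CORT libraries. Cd74 fell 3.7-fold (log2 fold change averaged over genotypes -1.89 ± 0.35, adjusted p = 0.00134 by edgeR), and it passed the filter through the vehicle groups alone. The fall was called in WT mice (log2 -2.13 ± 0.48, adjusted p = 0.0193 by edgeR) but was lost without WT vehicle mouse 4 (adjusted p = 0.0556), WT vehicle mouse 17 (0.109) or WT CORT mouse 20 (0.0586). In AS mice the log2 fold change was -1.64 ± 0.5 (adjusted p = 0.0792 by edgeR), and it was called without WT vehicle mouse 1 (adjusted p = 0.0134). With all 20 mice the Cd74 values were larger, at log2 -2.43 ± 0.44 averaged over genotypes (5.38-fold, adjusted p = 0.00204) and -2.82 ± 0.61 in WT mice (7.08-fold, adjusted p = 0.0265), both by edgeR. The AS value was then -2.03 ± 0.62 (adjusted p = 0.134 by edgeR).

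H2-Aa gave 5, 8, 42 and 47 counts in WT vehicle hippocampus, 7, 11, 12 and 17 in AS vehicle and 0 to 8 in the 10 CORT libraries. H2-Ab1 gave 0, 9, 31 and 34 counts in WT vehicle, 12, 12, 14 and 14 in AS vehicle and 0 to 6 with CORT. H2-Eb1 gave 10, 17, 32 and 42 counts in WT vehicle, 10, 13, 17 and 18 in AS vehicle and 4 to 12 with CORT. In each of the 3 genes WT vehicle mice 4 and 17 were the highest of the fitted libraries and WT vehicle mouse 1 lay within the CORT range. By count, the lowest AS vehicle library also lay within it for H2-Aa (7) and H2-Eb1 (10), but not for H2-Ab1. For H2-Aa a further WT vehicle library, with 8 counts, reached the highest CORT count. None of the 3 passed the filter. Fitted without it, H2-Aa (log2 -1.99 ± 0.41, adjusted p = 0.00327), H2-Ab1 (log2 -2.36 ± 0.47, adjusted p = 0.00216) and H2-Eb1 (log2 -1.33 ± 0.26, adjusted p = 0.00161) fell by edgeR. With all 20 mice the 3 genes passed the filter through WT vehicle alone, where mouse 13 gave the third library needed, and their log2 fold changes were -2.52 ± 0.51, -2.98 ± 0.6 and -1.74 ± 0.32, each called by edgeR. Choroid plexus markers moved with the WT groups: they summed to 77.5 to 2890 CPM in the 4 fitted WT vehicle and 36.7 to 129 CPM in WT CORT libraries, and 2 of 5 tested markers were called lower in WT mice (median log2 -2.03) but 0 of 5 in AS mice (median log2 0.2). WT vehicle mouse 13 (12600 CPM) is not among these. The highest sum of the fitted libraries was that of mouse 17, while that of mouse 4 was 84.9 CPM, and the part of that tissue in the class II values was not tested.

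The fall of the peptide editor was small. H2-DMa gave 326, 357, 360 and 394 counts in WT vehicle hippocampus, 354, 375, 384 and 396 in AS vehicle, 296, 300, 313, 338 and 341 in WT CORT and 297, 299, 317, 329 and 344 in AS CORT. In CPM, every CORT library was below every vehicle library, by a narrow margin, with means of 14.8 ± 0.897 and 17 ± 0.88 CPM (SD, n = 10 and 8), a separation found for 0.843% of tested genes. H2-DMa fell by 0.21 ± 0.05 on the log2 scale, or 1.16-fold (adjusted p = 0.00458 by edgeR). With AS vehicle mouse 9 (160 counts) and WT vehicle mouse 13 (361 counts) in the fit, the value was -0.11 (adjusted p = 0.592). Brd2 on the opposite strand was at 212 ± 6.69 CPM with CORT and 210 ± 8.09 with vehicle. H2-DMb1 was at 14 to 34 counts with vehicle and 13 to 26 with CORT (log2 -0.37 ± 0.18, adjusted p = 0.242 by edgeR), and the value with all 20 mice was -0.72 ± 0.26 (adjusted p = 0.0962 by edgeR). Ciita gave 0 to 8 counts, with medians of 3 with vehicle and 2 with CORT, at or below the floor. H2-DMb2 gave 1 to 11 counts, with medians of 5 and 5.5.

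**Figure D4:**
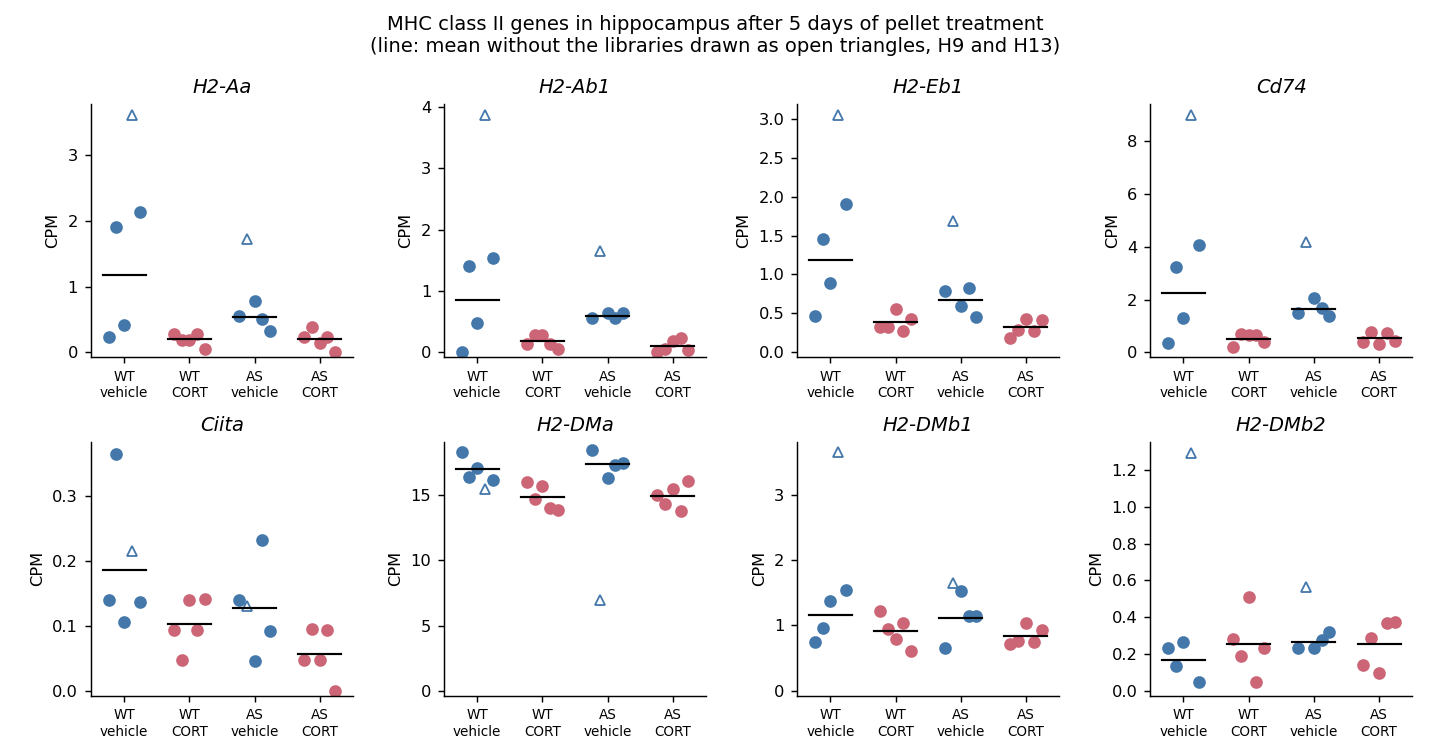
Level of each of the 8 genes in hippocampus of the continuous cohort (vertical axis, CPM), with 1 point per library and a line at the group mean without WT vehicle mouse 13 and AS vehicle mouse 9, which are drawn as open triangles. The triangles are the highest vehicle points for H2-Aa, H2-Ab1, H2-Eb1 and Cd74 in their groups, and the triangle of mouse 9 (6.94 CPM) is the lowest point for H2-DMa.

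In the mean of both genotypes, 2 of the 3 tested genes fell in hippocampus, Cd74 and H2-DMa, where 5.48% of 14949 tested genes were called lower. Without the filter 5 of 8 fell, against 2.32% of 31882 genes, and with all 20 mice 4 fell (H2-Aa, H2-Ab1, H2-Eb1 and Cd74). In WT mice 1 of 3 was called, and in AS mice 0 of 3, with 2.92% and 3.77% of all tested genes called in either direction. In AS mice Cd74 and H2-DMa were both under an unadjusted p of 0.05, and DESeq2 called Cd74. The genotype difference (0.348% of genes called) and the interaction (0% called, with 561 genes at an unadjusted p under 0.05) reached none of the 3, so the WT and AS responses were not shown to differ.

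Around them in hippocampus, where 5.48% of all tested genes fell and 4.19% rose, 5 of 15 tested class I genes fell, the immunoproteasome genes Psmb9 (log2 -0.83 ± 0.13) and Psmb8 (log2 -0.44 ± 0.11) furthest, with the class I light chain B2m at log2 -0.33 ± 0.06 and H2-D1 at log2 -0.28 ± 0.05. None of the 8 X and Y box factor genes was called, and 2 of 8 endosomal genes fell (Ctss by 0.21 and Ctsl by 0.14). Irf8 was the 1 called of 8 interferon gamma genes (log2 -0.25), and of 3 tested genes of the co-stimulation list Icosl rose (log2 0.34). Microglial markers, of the macrophages of brain tissue, summed to 245 to 300 CPM with vehicle and 216 to 257 CPM with CORT, and 3 of 6 fell (P2ry12 by 0.55, Cx3cr1 by 0.33 and Siglech by 0.3). Border macrophage markers, at 2.96 to 7.4 and 3.46 to 5.85 CPM, and dendritic cell markers, at 13.2 to 19.5 and 13.3 to 17.2 CPM, overlapped between treatments. The sum of the Kupffer cell list did not overlap, at 5.14 to 6.87 CPM with vehicle and 3.32 to 4.92 CPM with CORT, and its 1 tested marker Adgre1, a macrophage gene that microglia also express, fell by 0.63 on the log2 scale and was called in each genotype. The B cell sum went from 5.88 to 17.8 CPM to 3.96 to 8.04 CPM. Its 1 tested marker of 8 was called lower averaged over genotypes (log2 -0.76) but in neither genotype alone. The part of these cells in the class II values was not tested.

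Whether CORT acted differently in the 2 tissues was tested directly, in 1 fit of the 20 livers and 18 hippocampi. The study took both tissues from the same mice, and this fit treats their libraries as independent. The fall was larger in liver for H2-DMa (difference of log2 fold changes, liver minus hippocampus, -1.52 ± 0.16, adjusted p = 3.96e-09), H2-DMb1 (-1.37 ± 0.27, adjusted p = 0.000322), H2-Eb1 (-1.13 ± 0.3, adjusted p = 0.00512) and Ciita (-1.88 ± 0.58, adjusted p = 0.0188), all by edgeR. These are 4 of 7 tested genes, where 8.95% of all 15937 were called in this direction. Of the 3 genes that passed the filter in each tissue, H2-DMa and H2-DMb1 were called and Cd74 was not. Ciita, at 1 to 8 counts with vehicle (median 3, the floor) and 0 to 3 with CORT in hippocampus, left little room for a fall to be measured there. The H2-Eb1 difference was lost with all 40 libraries (-0.74, adjusted p = 0.144), and the Ciita difference was lost without the libraries numbered 8 (adjusted p = 0.0679) or 16 (0.057).

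For the alpha chain, its partner and the invariant chain no difference between tissues was called. The DESeq2 estimates with their 95% intervals were -0.36 (-1.09 to 0.37) for H2-Aa, -0.02 (-0.82 to 0.77) for H2-Ab1 and -0.15 (-0.77 to 0.47) for Cd74. The intervals do not show that the tissues responded alike. With all 40 libraries the differences were 0.14 ± 0.39, 0.54 ± 0.54 and 0.4 ± 0.42 by edgeR, on the other side of 0 and not called. In this joint fit the hippocampal log2 fold changes were -2.01 for H2-Aa, -2.36 for H2-Ab1, -1.35 for H2-Eb1 and -1.9 for Cd74, each called, and -0.96 for Ciita, -0.23 for H2-DMa and -0.38 for H2-DMb1, not called, where 4.07% of genes were called lower.

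**Figure D5:**
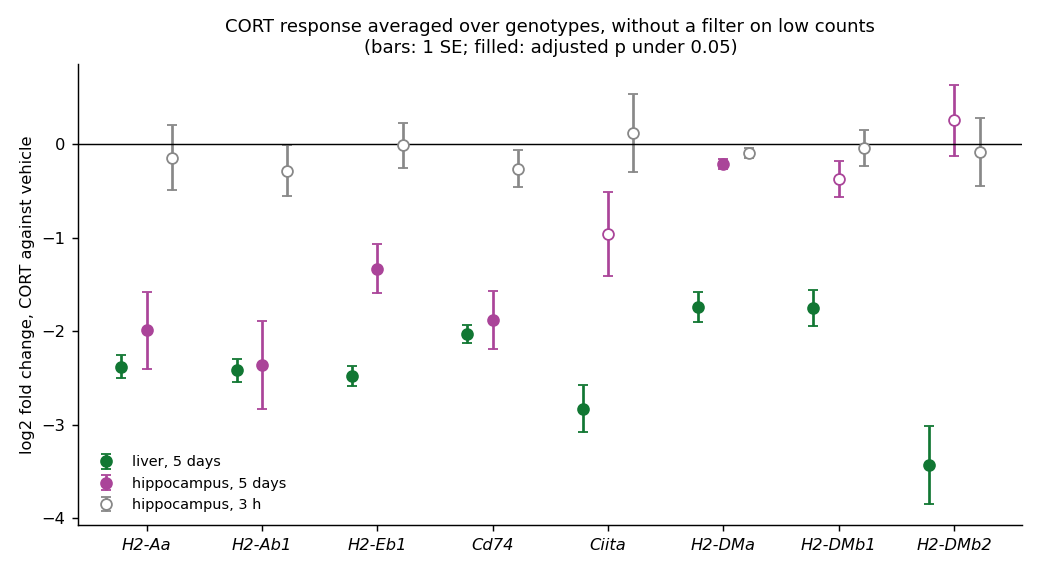
Log2 fold change of each gene, CORT against vehicle averaged over genotypes and fitted without a filter on low counts, in liver and hippocampus after 5 days and in hippocampus 3 h after an injection, with bars of 1 SE and filled points at an adjusted p under 0.05. The liver points lie between -3.43 and -1.74, the 5-day hippocampus points spread from -2.36 to 0.26, and the 3 h points from -0.28 to 0.12 are all open.

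At 3 h after a single injection, no class II chain was called in hippocampus. Cd74 had 13, 17 and 23 counts (lowest, median and highest of 6) in WT vehicle, 10, 16.5 and 30 in WT CORT, 8, 21.5 and 30 in AS vehicle and 9, 13 and 20 in AS CORT libraries. All 4 groups overlapped, and the log2 fold change averaged over genotypes was -0.26 ± 0.21 (adjusted p = 0.5 by edgeR). Cd74 passed the filter through AS vehicle alone and so had to be high there. The genotypes had opposite signs, at log2 0.11 ± 0.29 in WT and -0.63 ± 0.29 in AS mice (adjusted p = 0.132, unadjusted p = 0.0417 by edgeR), and their difference was not called (log2 -0.74 ± 0.41, adjusted p = 0.277 by edgeR). With a term for low-quality reads, described with H2-DMa, the AS value was -1.01 ± 0.37 (adjusted p = 0.327 by edgeR). H2-Aa, H2-Ab1 and H2-Eb1 stayed at 0 to 16 counts in all 24 libraries and did not pass the filter. Fitted without it, none was called. H2-Aa was at log2 0.6 ± 0.51 in WT and -0.88 ± 0.46 in AS mice (adjusted p = 0.319 by edgeR), a difference of -1.48 ± 0.69 (adjusted p = 0.33, unadjusted p = 0.0378 by edgeR). In AS mice H2-Ab1 was at log2 -0.6 ± 0.38 and H2-Eb1 at -0.37 ± 0.36. These values do not exclude a fall in AS mice.

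H2-DMa had 332, 342 and 381 counts in WT vehicle, 296, 349.5 and 414 in WT CORT, 300, 349 and 372 in AS vehicle and 286, 308 and 340 in AS CORT libraries. The groups overlapped, and only the CORT response in AS mice was called (log2 -0.21 ± 0.07, adjusted p = 0.0424 by edgeR), in a contrast where 17.9% of 14611 genes were called. The call was lost in 7 of 24 fits that left out 1 library. All 6 AS CORT libraries and 2 AS vehicle libraries, but none of the others, carried 2640 to 2850 low-quality reads against 1877 to 2237, and with a term for this split the value was -0.08 (adjusted p = 0.933). The 2 tested genes, Cd74 and H2-DMa, were called in no other acute contrast: CORT in WT (1.48% of genes called), CORT averaged over genotypes (7.02%), AS against WT (14.2%) and the interaction (4.49%). With CORT averaged over genotypes, 0 of 14 class I genes and 0 of 8 X and Y box factor genes were called, and 4 of 6 microglial markers fell (Cx3cr1 by 0.4 on the log2 scale). Of the other lists, 1 of 8 endosomal genes fell, and 1 of 3 genes of the co-stimulation list and 1 of 8 interferon gamma genes rose. In AS mice, where H2-DMa was called, 3 of 14 class I genes and 4 of 6 microglial markers fell and 1 of 8 factor genes rose, and in WT mice these counts were 0 and 2 lower and 0 higher. These counts are without the term for low-quality reads, which took the genes called over the whole table from 2612 to 150 for CORT in AS mice, from 1025 to 469 for CORT averaged over genotypes, from 2073 to 3 for AS against WT and from 656 to 1 for the interaction.

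The 3 chains and Cd74 varied together among livers of the same group. Over 20 livers, taken as deviations from the group means, the 4 genes correlated with each other at r = 0.785 to 0.934, and the genes outside the 8 that followed their mean most closely were Rac2 (r = 0.83), C1qa (0.739), Il2rb (0.738), C1qb (0.73), Alpk1 (0.721) and Ppm1h (0.711). Rac2 is a GTPase of blood cells, C1qa and C1qb encode complement subunits made by macrophages, and Il2rb is a receptor chain of T and natural killer cells. Over 18 hippocampi of the continuous cohort the 4 genes correlated with each other at 0.378 to 0.812, and Ecel1 (r = 0.846), Il17rc (0.835) and Mios (0.832) were the nearest genes. Over the 24 acute hippocampi the 4 genes hardly varied together (0.071 to 0.337). These values describe libraries that also share depth and tissue pieces, and they are the highest of all genes tested.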

How the data were processed

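RNA-seq read counts per gene were deposited for 64 libraries, 24 of acute hippocampus and 20 each of continuous hippocampus and liver. The authors sequenced stranded mRNA libraries, aligned reads to mm10 with STAR and counted them with HTSeq (FastQC and MultiQC for quality). The deposited values are raw counts, and the reads assigned to no gene, 11.7 to 23.3% of those counted, were kept out. Versions of these tools, the annotation release and the strand setting are not given in the sources used here.

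Genes above 20 normalised counts in no fewer than 3 libraries of some group were tested with edgeR 4.0.16 in R 4.3.3 (TMM, quasi-likelihood test, group means of all 4 groups of a data set in 1 fit, all 8 groups for the tissue comparison), with Benjamini-Hochberg adjustment over all tested genes and a threshold of 0.05. Continuous hippocampus was fitted without the libraries numbered 9 and 13, after the study's methods. SE is the log2 fold change divided by the root of F. CPM values are counts scaled to the TMM-adjusted library size. DESeq2 1.42.0 and limma 3.58.1 gave alternatives, among them fits without the filter and with each replicate left out. On simulated data, 95 of 100 genes changed by 1 on the log2 scale were recovered in the liver comparison (12273 genes) and 97 of 100 in the hippocampus comparison (14949 genes), as were all 100 genes changed by 2 in each, and 10 and 12 unchanged genes were called. Gene positions are GRCm38, of 55414 rows 52133 were matched, and transcripts of H2-DMb1 and H2-DMb2 were aligned with blastn 2.17.0+. RefSeq promoter windows were matched for 5 of the 8 genes. Named genes of other lists were those with the largest and smallest called log2 fold change, up to 4 a list, and the other genes of a list are named where a role is described. Genes, lists and tests were chosen with earlier results of these data known, and genes of the other lists named outside that rule (Rfx5, Rfxap, Rfxank) after their values were seen. Correlations across libraries are descriptions with no test.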

Additional observations from a re-analysis of the deposited data

Results flagged for a closer look

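In 6 of 96 groups of 4 to 6 libraries, where chance gives about 1 in 20 (4.8 expected), 1 library stood far from the others of its group. In acute hippocampus these were H2-DMb1 in AS CORT mouse 19 (1.37 CPM, others 0.525 to 0.714) and in WT vehicle mouse 2 (1.26 CPM, others 0.531 to 0.781), H2-Ab1 in AS vehicle mouse 18 (0.781 CPM, others 0.297 to 0.438), H2-Eb1 in WT CORT mouse 11 (0.622 CPM, others 0.293 to 0.394) and H2-DMa in WT vehicle mouse 1 (18.1 CPM, others 16.2 to 16.7). In continuous hippocampus Ciita stood apart in WT vehicle mouse 4 (0.361 CPM, 8 counts, others 0.104 to 0.138). All but H2-DMa were between 8 and 28 counts.

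The CORT effect differed between liver and hippocampus, by a test of the difference itself, for H2-Eb1 (log2 -1.13), Ciita (log2 -1.88), H2-DMa (log2 -1.52) and H2-DMb1 (log2 -1.37), liver minus hippocampus. Ciita and H2-Eb1 passed the filter through liver alone, and the hippocampal counts of Ciita were at the floor (median 3 with vehicle, 0 to 3 with CORT).

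The 2 hippocampal libraries left out of the fits lay outside the range of the kept vehicle libraries of their genotype for the genes listed next. They also departed in neuron markers, with sums of 1920 CPM in WT vehicle mouse 13 and 2630 CPM in AS vehicle mouse 9. The share of all genes outside the kept range was not counted, so these values are not read as a result about class II genes. AS vehicle mouse 9 had 1.73 CPM of H2-Aa (others 0.32 to 0.783), 1.65 of H2-Ab1 (0.554 to 0.644), 1.69 of H2-Eb1 (0.457 to 0.83), 4.16 of Cd74 (1.37 to 2.07), 1.65 of H2-DMb1 (0.653 to 1.52) and 0.564 of H2-DMb2 (0.23 to 0.32). WT vehicle mouse 13 had 3.6 CPM of H2-Aa (others 0.232 to 2.13), 3.86 of H2-Ab1 (0 to 1.54), 3.05 of H2-Eb1 (0.464 to 1.9), 8.97 of Cd74 (0.371 to 4.07), 3.65 of H2-DMb1 (0.742 to 1.54) and 1.29 of H2-DMb2 (0.0453 to 0.263). H2-DMa was at 6.94 CPM in mouse 9 (others 16.3 to 18.5) and 15.5 CPM in mouse 13 (16.2 to 18.3), and Ciita, at 3 and 5 counts, lay within the range of the others. Mouse 13 also had a choroid plexus marker sum of 12600 CPM and a T cell sum of 61.3 CPM, and mouse 9 a border macrophage sum of 15.1 CPM, the part of which in these values was not tested.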

How the results depend on the processing

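In liver, 7 genes were called in each CORT contrast under the alternatives run, or 8 without the filter, and no log2 fold change of the 8 genes that was called changed sign. In acute hippocampus the AS count of 1 went to 0 at an adjusted p under 0.01, without the filter and with the term for low-quality reads. In continuous hippocampus the WT count of 1 went to 0 at an adjusted p under 0.01, with limma-voom and with only the 2 groups compared, and to 3 without the filter, with all 20 mice and with both. The AS count of 0 went to 1 with DESeq2, with upper-quartile scaling and with only the 2 groups compared, and the averaged count of 2 went to 5 without the filter and to 4 with all 20 mice, filtered or not; the fit that joins all 20 mice and no filter was chosen after seeing the data. Among genes that pass the filter in each tissue, 3 were tested, 2 differed in CORT effect and 3 in vehicle level. Without the filter, 5 of 8 genes fell more in liver than in hippocampus, where 1209 of 33864 genes were called in this direction. Leaving out 1 library moved the counts between 0 and 1 for AS acute hippocampus and for WT and AS continuous hippocampus, and leaving out the liver and hippocampus libraries of 1 number together moved the count for the tissue difference between 3 and 4. The study took both tissues from the same mice, and hippocampus and liver libraries share 20 of 20 numbers within genotype and treatment. The sources used here do not state that a number marks 1 mouse. Deviations of libraries with the same number were not correlated over 18 pairs (r -0.0813 to 0.0763, 0 best with their own number). A correlation between 2 different tissues cannot decide whether they came from 1 mouse. The main tissue fit treats the libraries as independent and takes no account of shared mice. With a replicate block 4 genes still differed in CORT effect and 7 in vehicle level. The causes of these moves were not tested beyond the libraries or genes each setting removes. Hippocampal counts under about 20 limit H2-Aa, H2-Ab1, H2-Eb1, Ciita and H2-DMb2, where a count of 3 is the floor.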
